A study of Mus musculus with 4 samples.

Results

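Cadherins and protocadherins are calcium-dependent adhesion molecules of the cell surface, and their genes were measured by RNA sequencing of input RNA of the nucleus accumbens set against the dorsal striatum. Members were the gene rows whose symbol is Cdh followed by a number, or starts with Pcdh, with at least 10 counts summed over all libraries. Of 94 such rows among the 32531 gene rows, 84 reached that sum, namely 19 cadherins, 54 clustered protocadherins and 11 other protocadherins. Beside the symbol they were chosen by 1 measured value, the count summed over both regions. Just inside that minimum lay Cdh26 with 12 counts, and just outside it lay Cdh3 with 7.

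The samples were 2 libraries of accumbens nucleus and 2 of dorsal striatum, all from mice aged more than 20 months. The animals of both regions carried the transgene Drd1-EGFP/Rpl10a (line CP73), in which the promoter of the dopamine receptor gene Drd1 drives a tagged ribosomal protein in neurons of the direct pathway. The libraries are of the input kind, total RNA of the dissected tissue, so all cell types of the dissection contribute and the transgene selected none of them. Nothing in the labels ties the libraries to different animals. The p-values therefore rest on the variation among these 4 samples, part or all of which may be technical.

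Classical cadherins bind the same or a related cadherin on the neighbouring cell and are tied to actin through beta- and alpha-catenin. They fall into type I, with N-cadherin (Cdh2) as the main neuronal form, and type II, which many brain nuclei express in different combinations. Non-clustered protocadherins of the delta-1 and delta-2 groups act in axon growth and synapse formation. Clustered protocadherins are encoded in the neighbouring alpha, beta and gamma arrays. There, single neurons choose different sets of variable exons, and like sets on branches of 1 neuron lead to self-avoidance.

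Promoter sequences from RefSeq (GRCm38.p6) are shown for 3 members. Pcdh10 is the one member past the threshold whose promoter was matched, Pcdh8 had the largest fold change of its subclass, and Cdh9 had the lowest adjusted p of the members that were lower in accumbens. Each runs from 250 bases before to 50 bases after a gene start, 5′ to 3′ on the strand of the gene, with CpG dinucleotides in capitals. The windows are chr3:45378148-45378447 (plus strand) for Pcdh10, chr14:79771263-79771562 (minus strand) for Pcdh8 and chr15:16728665-16728964 (plus strand) for Cdh9.
Pcdh10: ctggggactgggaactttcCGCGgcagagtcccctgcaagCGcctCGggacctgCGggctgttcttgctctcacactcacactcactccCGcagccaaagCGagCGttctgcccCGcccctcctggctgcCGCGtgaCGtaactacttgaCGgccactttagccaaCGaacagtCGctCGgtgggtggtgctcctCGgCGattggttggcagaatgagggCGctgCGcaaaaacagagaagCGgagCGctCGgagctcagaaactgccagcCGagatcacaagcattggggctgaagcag
Pcdh8: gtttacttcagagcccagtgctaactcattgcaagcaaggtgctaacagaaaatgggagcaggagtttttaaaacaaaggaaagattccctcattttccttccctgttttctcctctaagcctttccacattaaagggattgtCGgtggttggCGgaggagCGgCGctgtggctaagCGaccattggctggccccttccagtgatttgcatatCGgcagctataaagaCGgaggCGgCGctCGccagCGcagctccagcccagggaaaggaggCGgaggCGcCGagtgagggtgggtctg
Cdh9: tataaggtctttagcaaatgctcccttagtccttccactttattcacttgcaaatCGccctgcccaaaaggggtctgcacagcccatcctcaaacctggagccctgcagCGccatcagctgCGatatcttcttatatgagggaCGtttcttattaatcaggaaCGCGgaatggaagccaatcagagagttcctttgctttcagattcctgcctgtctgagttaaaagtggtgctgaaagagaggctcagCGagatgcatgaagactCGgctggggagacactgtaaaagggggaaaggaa
The Pcdh10 window holds 24 CpG dinucleotides, more than 80.0% of the 32851 RefSeq promoter windows of this length. The Pcdh8 window holds 14 and the Cdh9 window 8, against a median of 7 over all windows. The letters TATAAA, searched on both strands, occur in the Pcdh8 window and in neither of the other windows, and in 13.6% of all windows. The letters GGGCGG, searched likewise and overlapping CpG dinucleotides, occur in the Pcdh10 window alone of these 3 and in 35.7% of all windows. A window was matched for 22 of the 84 members.

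The libraries had 8606099 and 8478403 counts assigned to genes in accumbens, against 8991788 and 11849134 in dorsal striatum, and the accumbens libraries detected fewer genes (16915 and 17417 in accumbens, against 19519 and 19532 in dorsal striatum). Genes that define striatal projection neurons were present in every library, with a summed level of 4765 to 5801 CPM (counts scaled to a common library size with TMM factors) in accumbens and 6455 to 6575 CPM in dorsal striatum over 10 genes.

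Of 81 members that passed the filter on low counts, 4 were higher in accumbens and 0 were lower. Over all 14493 tested genes 1.28% passed in either direction, 0.994% (144 genes) as higher and 0.29% (42 genes) as lower. The 4 were Pcdh1, Pcdh10, Cdh2 and Cdh4, each about 2-fold higher. At an unadjusted edgeR p under 0.05 there were 15 higher and 3 lower members of 81, where 19.2% of all tested genes stood, 10.9% as higher and 8.27% as lower. DESeq2 called 8 higher and 2 lower of the 45 members to which it gave an adjusted p, and 11.2% of all 8311 such genes. By limma-voom 5 members were higher and 0 lower, against 2.97% of all genes. The median log2 fold change (accumbens over dorsal striatum) was 0.27 over the 81 members and 0.02 over all tested genes, with 57 members positive. With libraries scaled by size alone, the medians were 0.10 and −0.15, and 48 members were positive. Fewer cells of a type and less RNA per cell cannot be told apart in these bulk libraries.

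The count of 4 rested on the libraries used. Leaving out accumbens replicate 1 gave 17 higher and 3 lower of 82 tested members, in a fit that called 18.2% of all genes. Leaving out accumbens replicate 2 gave 21 higher and 8 lower of 82, where 28.9% of all genes were called, so in both fits calls became more frequent over all genes too. Leaving out dorsal striatum replicate 1 gave 1 higher and 0 lower of 83 (0.71% of all genes), and dorsal striatum replicate 2 gave 3 and 0 (1.09% of all genes). In each of these fits the lone library of a region was assumed to scatter as much as the pair of the other region. Pcdh1 and Pcdh10 were the 2 that passed with library size as the scaling, where 1.68% of all genes did. Among all tested genes the fold change varied with the GC content of the transcript, with a median of −0.10 in decile 2 and 0.31 in decile 10. The median GC content was 47.8% for the members with a value and 50.04% for all tested genes. An offset for GC content, chosen after seeing the data, left 2 members past the threshold, Cdh2 and Pcdh10, and 0.738% of all genes. The members' median was then 0.33.

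**Figure D1:**
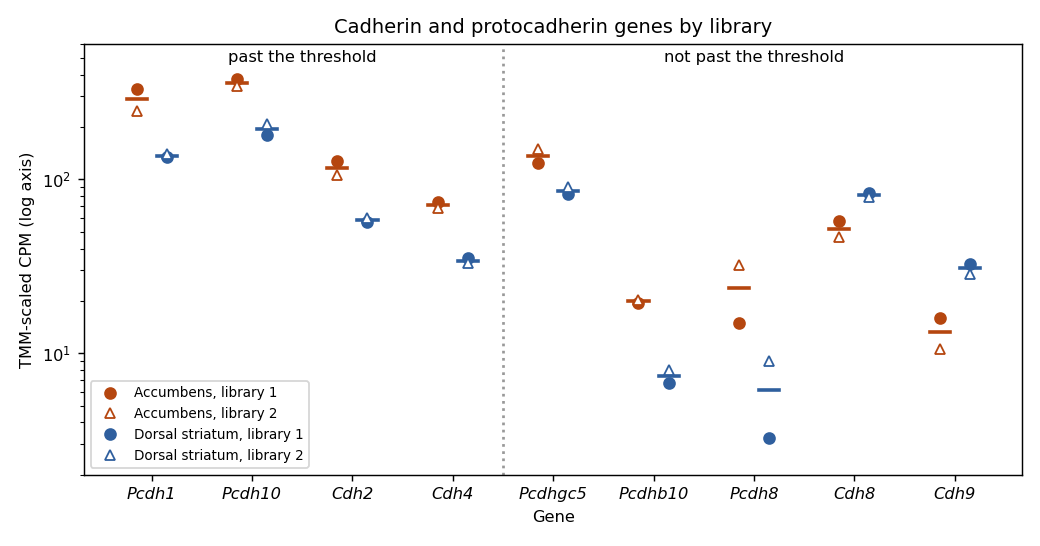
Levels of 9 members in each library, as TMM-scaled CPM on a log axis; circles are library 1, open triangles library 2 and bars the mean of a region. Accumbens lies above dorsal striatum in both libraries for the 4 genes past the threshold and for Pcdhgc5, Pcdhb10 and Pcdh8, and below it for Cdh8 and Cdh9.

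Among type I cadherins both N-cadherin and R-cadherin genes were higher in accumbens. Cdh2, which encodes N-cadherin of synapses and neural progenitor junctions (chromosome 18), stood at 127 and 105 CPM in the accumbens libraries, against 56.7 and 60.0 CPM in the dorsal striatum libraries. The lowest accumbens value was well above the highest of dorsal striatum. Means (± SD, n = 2 each) were 116 ± 15.5 CPM for accumbens against 58.4 ± 2.31 CPM for dorsal striatum, a log2 fold change of 0.99 (SE 0.16, edgeR adjusted p = 0.0431).

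Cdh4, which encodes R-cadherin, a close relative that can pair with N-cadherin (chromosome 2, 179442431 to 179899373, plus strand), stood at 74.0 and 68.0 CPM in accumbens, against 35.2 and 33.0 CPM in dorsal striatum. The libraries of a region lay close together and those of different regions far apart. The log2 ratio of regions was 1.06 (SE 0.17, edgeR adjusted p = 0.0431). Neither gene passed when either dorsal striatum library was left out, with edgeR adjusted p between 0.0706 and 0.115 for Cdh2 and between 0.129 and 0.172 for Cdh4. Both missed the threshold narrowly with library size alone (0.0510 for each), and Cdh4 did so with the GC offset (0.0510).

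The third tested type I gene, Cdh15, the M-cadherin gene of muscle and cerebellar cells, had 0.124 and 5.75 CPM in accumbens, against 1.89 and 1.04 CPM in dorsal striatum. Its accumbens libraries lay on both sides of the dorsal striatum pair. Cdh1 and Cdh3, the E- and P-cadherin genes of epithelia, had 2 and 7 counts in all.

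Type II cadherins had 0 of 12 tested members past the threshold in edgeR, with 0 higher and 2 lower at an unadjusted p under 0.05. Over all tested genes 19.2% stood there, 10.9% as higher and 8.27% as lower. DESeq2 called those 2, Cdh8 and Cdh9, as lower, and limma-voom called 0. DESeq2 called 11.2% of all genes to which it gave an adjusted p, and limma-voom 2.97% of all tested genes. Fold changes of the 12 were split evenly, 6 positive and 6 negative, with a median of −0.01. Cdh9, known in mouse hippocampus for the specificity of mossy fibre synapses (chromosome 15), was at 16.0 and 10.6 CPM in accumbens and 32.8 and 28.7 CPM in dorsal striatum. The groups did not overlap, and the log2 ratio was −1.21 (SE 0.29, edgeR adjusted p = 0.0828). It was −1.53 without accumbens replicate 1 and −0.94 without accumbens replicate 2. In fits that left 1 library in a region, whether Cdh9 passed depended on the library left out.

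Cdh8, a type II gene with patterned expression in the forebrain (chromosome 8), stood at 57.6 and 46.5 CPM in accumbens, against 83.0 and 79.6 CPM in dorsal striatum. Again every accumbens value was below every dorsal striatum value. The log2 ratio of regions was −0.64 (SE 0.18, edgeR adjusted p = 0.113).

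Cdh11, the most abundant type II gene by counts, was at 83.0 and 68.1 CPM in accumbens, against 86.8 and 83.8 CPM in dorsal striatum. Cdh7 was at 36.7 and 39.5 CPM in accumbens against 34.6 and 36.2 CPM in dorsal striatum, and Cdh10 at 29.4 and 26.1 CPM in accumbens against 34.5 and 28.8 CPM in dorsal striatum. These 3 had log2 fold changes between −0.19 and 0.11. The largest positive one of the subclass was that of Cdh24, 1.43 (SE 0.67, edgeR adjusted p = 0.292), from 35 and 32 counts in accumbens against 18 and 15 in dorsal striatum.

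Cdh5, the VE-cadherin gene of endothelial junctions, did not pass the filter. It had 37 and 7 counts in the accumbens libraries, against 7 and 5 in the dorsal striatum libraries. Endothelial marker genes summed to 46.3 and 15.9 CPM in the same accumbens libraries, against 20.0 and 9.01 CPM in dorsal striatum. Of the 6 markers, Cldn5 was at 0 in replicate 2 of both regions. The part of endothelial content in the Cdh5 counts was not tested. Cdh13, which encodes T-cadherin, anchored to the membrane by a lipid and without a cytoplasmic tail, was at 67.1 and 46.3 CPM in accumbens and 54.3 and 51.0 CPM in dorsal striatum. Its regions overlapped, and its log2 fold change of 0.11 turned to −0.06 with library size alone. Cdh23, which encodes a tip link protein of hair cells, had 0 to 13 counts per library and was not tested.

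**Figure D2:**
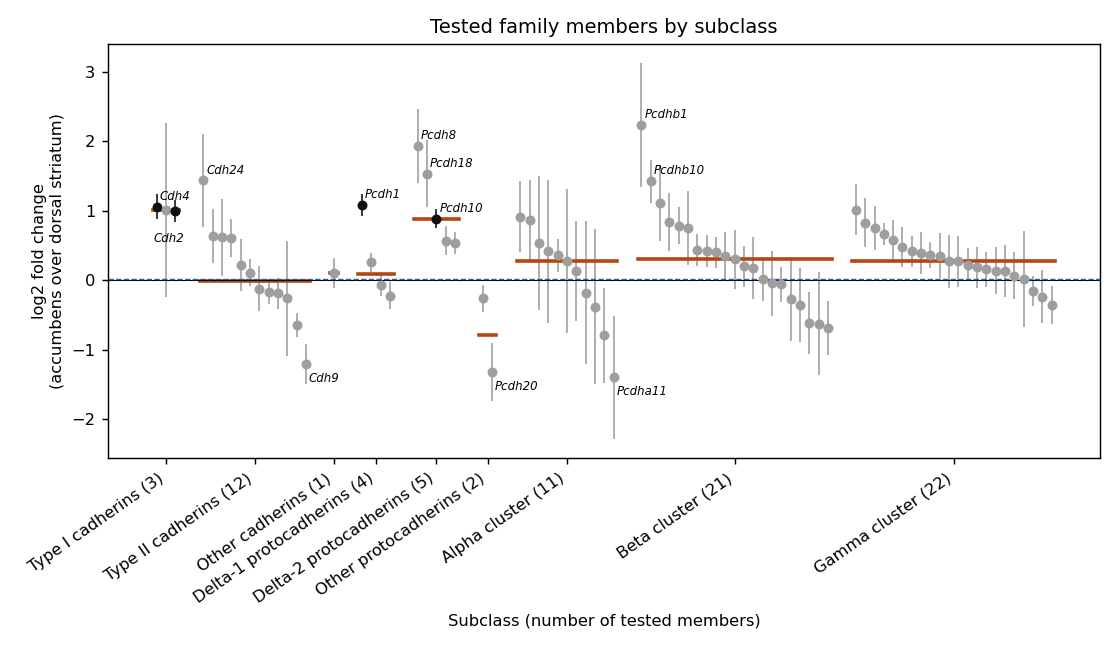
Log2 fold change (accumbens over dorsal striatum) of the 81 tested members by subclass, with the standard error as bars; black points passed the edgeR threshold, orange lines are subclass medians and the dashed line is the median of all tested genes (0.02). All 5 delta-2 protocadherins and all 3 type I cadherins are positive, while type II cadherins spread on both sides of 0.

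Among delta-1 protocadherins Pcdh1 was higher in accumbens and the other 3 were not called. Pcdh1 encodes an adhesion protein of neurons and airway epithelium (chromosome 18). It was at 329 and 249 CPM in accumbens, against 134 and 139 CPM in dorsal striatum. Both accumbens values exceeded both values of dorsal striatum, and the accumbens libraries lay further apart. Means (± SD, n = 2 each) were 289 ± 56.6 CPM for accumbens against 137 ± 4.18 CPM for dorsal striatum, and the log2 ratio was 1.08 (SE 0.16, edgeR adjusted p = 0.0302). It was the one member that passed with each library left out in turn. With the GC offset it narrowly missed (0.0523, log2 fold change 0.84).

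Pcdh9, the most abundant member in dorsal striatum per kilobase of exon, stood at 182 and 166 CPM in accumbens, against 206 and 160.4 CPM in dorsal striatum. Pcdh7, a receptor in the outgrowth of axons, stood at 118 and 121 CPM in accumbens against 102 and 98.2 CPM in dorsal striatum, with a log2 fold change of 0.26 (SE 0.14, edgeR adjusted p = 0.361). Pcdh11x, on the X chromosome, was at 39.4 and 49.8 CPM in accumbens, against 49.9 and 54.3 CPM in dorsal striatum. None of these 3 had a difference beyond the test's threshold.

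All 5 delta-2 protocadherins were positive, and their libraries did not overlap between regions. Over all tested genes 25.6% were non-overlapping in that direction. Pcdh10 alone of the 5 passed the threshold. It is needed in mouse for the growth of striatal axons (chromosome 3, 45378398 to 45435623, plus strand). Its levels were 377 and 343 CPM in accumbens and 181 and 209 CPM in dorsal striatum, a log2 fold change of 0.88 (SE 0.13, edgeR adjusted p = 0.0332). The means (± SD, n = 2 each) were 360.0 ± 24.5 CPM for accumbens against 195 ± 20.1 CPM for dorsal striatum, the highest of the family in both regions by CPM. Without dorsal striatum replicate 1 its edgeR adjusted p was 0.0622.

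Pcdh17, which acts at presynaptic sites of the basal ganglia circuit in mouse, was at 218 and 247 CPM in accumbens, against 142 and 178 CPM in dorsal striatum (log2 ratio of regions 0.53 with SE 0.16, edgeR adjusted p = 0.125). Pcdh19, the gene of an epilepsy limited to females in humans, was at 64.4 and 74.8 CPM in accumbens against 39.1 and 54.6 CPM in dorsal striatum (log2 ratio of regions 0.57 with SE 0.21, edgeR adjusted p = 0.195). In both genes replicate 2 was the higher library of each region, and the regions stayed apart.

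Pcdh8, an activity-regulated gene whose product promotes the uptake of N-cadherin at rat synapses, had the largest fold change of the subclass. It stood at 15.0 and 32.3 CPM in accumbens, against 3.26 and 9.01 CPM in dorsal striatum, a log2 fold change of 1.93 (SE 0.54, edgeR adjusted p = 0.117). The libraries of each region lay more than 2-fold apart. The log2 fold change was 1.25 without accumbens replicate 2 and 2.35 without accumbens replicate 1. It was 2.85 without dorsal striatum replicate 2 and 1.37 without dorsal striatum replicate 1. Whether Pcdh8 passed in these fits depended on the library left out. Pcdh18 stood at 7.80 and 18.3 CPM in accumbens against 4.31 and 4.70 CPM in dorsal striatum, a log2 fold change of 1.53 (SE 0.48, edgeR adjusted p = 0.144). That was 0.79 without accumbens replicate 2, and 2.01 without accumbens replicate 1.

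Cortical glutamatergic markers, which the Pcdh8 values can be set beside, summed to 644 and 451 CPM in accumbens, against 340.1 and 271 CPM in dorsal striatum over 11 genes. The defining gene Slc17a7 was at 198 and 79.4 CPM in accumbens, against 32.3 and 0.717 CPM in dorsal striatum, and Neurod6 was at 0 in dorsal striatum replicate 2. Cux2 was at 17.0 and 34.9 CPM in accumbens, against 13.9 and 10.6 CPM in dorsal striatum. The part of cortical tissue in the levels of the family was not tested.

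Of the remaining non-clustered genes, Pcdh20 had 31 and 32 counts in accumbens and 82 and 138 in dorsal striatum. The log2 ratio of regions was −1.32 (SE 0.42, edgeR adjusted p = 0.146). Pcdh15, a tip link gene of hair cells that oligodendrocyte precursors also express, was at 36.9 and 34.9 CPM in accumbens against 46.1 and 39.9 CPM in dorsal striatum (log2 ratio of regions −0.26 with SE 0.19). Markers of oligodendrocyte precursors summed to 154 and 193 CPM in accumbens, against 168 and 150.2 CPM in dorsal striatum. Pcdh12, a gene of endothelium, was listed at 0 in every library, where 3 counts would have been 0.239 to 0.375 CPM.

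Per kilobase of exon not shared with another gene, which allows levels of different genes to be compared, Pcdh1 led in accumbens and Pcdh9 in dorsal striatum. In accumbens the mean levels were 32.8 CPM per kilobase for Pcdh1, 25.7 for Pcdh9, 22.9 for Pcdh10, 17.9 for Pcdh17 and 14.4 for Cdh2. In dorsal striatum they were 15.5 for Pcdh1, 27.0 for Pcdh9, 12.4 for Pcdh10, 12.3 for Pcdh17 and 7.24 for Cdh2. Among 51 members with such a level, Cdh8 ranked 11 in accumbens and 6 in dorsal striatum, Cdh9 ranked 25 in accumbens and 8 in dorsal striatum, and Cdh4 ranked 7 in accumbens and 14 in dorsal striatum. Exon lengths come from GENCODE M21 and may differ from those the authors counted on. Alpha and gamma genes were left out because each of them shares its 3′ exons with others.

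**Figure D3:**
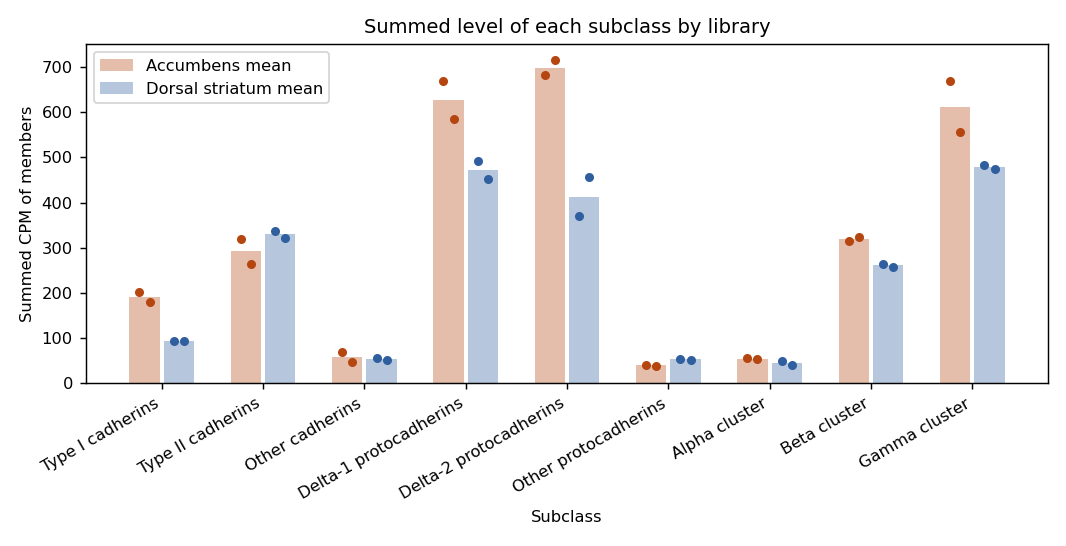
Summed CPM of the kept members of each subclass; bars are means of 2 libraries and points the libraries, replicate 1 to the left. The delta-2 group sums to 682 and 715 CPM in accumbens, above 369.5 and 456 CPM in dorsal striatum, and type I cadherins to 201 and 179 CPM, above 93.8 and 94.0 CPM in dorsal striatum.

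The clustered genes had 0 of 54 members past the threshold in edgeR, with 7 higher and 0 lower at an unadjusted p under 0.05. Over all tested genes 19.2% stood there, 10.9% as higher and 8.27% as lower. DESeq2 called 2 clustered genes as higher and limma-voom 1. DESeq2 called 11.2% of all genes to which it gave an adjusted p, and limma-voom 2.97% of all tested genes. By array, fold changes were positive for 7 of 11 alpha, 14 of 21 beta and 19 of 22 gamma genes, with medians of 0.28, 0.30 and 0.27. With library size alone these counts were 6, 13 and 14. Libraries did not overlap between regions for 24 of the 54, a share of 44.4%, against 51.2% of all tested genes. Of the 24, 19 were higher and 5 lower in accumbens, where all tested genes had 25.6% in each direction. Summed levels were 55.5 and 53.0 CPM for alpha genes in accumbens, against 48.5 and 39.5 CPM in dorsal striatum. For beta genes they were 314 and 325 CPM in accumbens, against 264 and 258 CPM in dorsal striatum, and for gamma genes 668 and 555 CPM in accumbens against 482 and 475 CPM in dorsal striatum. With TMM scaling, all 3 sums were higher in both accumbens libraries than in either dorsal striatum library. Scaled by library size alone, the alpha sum of accumbens replicate 2 (424 counts) fell below that of dorsal striatum replicate 1 (462 counts).

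In the beta array, whose genes are single exons, Pcdhb10 had the lowest adjusted p of all clustered genes. Named after its value was seen, it was at 19.6 and 20.1 CPM in accumbens, against 6.72 and 8.05 CPM in dorsal striatum, a log2 fold change of 1.42 (SE 0.31, edgeR adjusted p = 0.0692). Pcdhb1 had the largest fold change, 2.23 (SE 0.90, edgeR adjusted p = 0.228), from 36 and 12 counts in accumbens and 5 and 9 in dorsal striatum. Without accumbens replicate 1 it was 1.24, and without accumbens replicate 2 it was 2.80. The most abundant beta genes were Pcdhb14, Pcdhb16, Pcdhb17 and Pcdhb18, with log2 fold changes from −0.06 to 0.43. Beta genes resemble one another, and reads with several alignments were not counted to a gene, so single beta rows are uncertain.

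C-type genes at the 3′ ends of the alpha and gamma arrays are known to be expressed without the choice that the other variable exons undergo. Pcdhgc5 had the highest level of the gamma array by CPM, 124 and 149 CPM in accumbens, against 82.2 and 89.7 CPM in dorsal striatum. Its log2 ratio was 0.67 (SE 0.16, edgeR adjusted p = 0.0802), and the regions did not overlap. Pcdhgc3 stood at 57.6 and 49.0 CPM in accumbens against 41.8 and 41.2 CPM in dorsal striatum, and Pcdhac2, needed in mouse for the spacing of serotonergic axons, at 29.6 and 25.5 CPM in accumbens against 22.7 and 20.3 CPM in dorsal striatum. Pcdhgc4, needed in mouse for the survival of interneurons, was at 9.29 and 13.9 CPM in accumbens against 8.72 and 12.4 CPM in dorsal striatum. The 5 C-type genes, a grouping chosen after their values were seen, were all positive, 4 of them with library size alone. They took 30.9% and 39.2% of all alpha and gamma counts in accumbens, against 29.6% and 31.9% in dorsal striatum.

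Reads in the 3′ exons that all alpha genes or all gamma genes share cannot be given to 1 gene. In GENCODE M21, 3028 of the 5888 exonic bases of Pcdhac2 are its own. The rows Pcdha4, Pcdha6, Pcdha6-g and Pcdha7 were listed at 0 in every library, and Pcdha7-g had 1 count. The alpha genes with the largest changes were Pcdha5 with 44 and 64 counts in accumbens against 40 and 37 in dorsal striatum, Pcdha12 with 34 and 75 in accumbens against 43 and 37 in dorsal striatum, Pcdha2 with 16 and 14 in accumbens against 36 and 34 in dorsal striatum, and Pcdha11 with 3 and 14 in accumbens against 27 and 35 in dorsal striatum. Among gamma genes outside the C-type, Pcdhga3 was at 56.1 and 31.8 CPM in accumbens against 29.2 and 29.4 CPM in dorsal striatum, and Pcdhga7 at 35.2 and 29.5 CPM in accumbens against 33.2 and 38.5 CPM in dorsal striatum. The remaining alpha genes other than Pcdhac2 had between 1 and 28 counts per library.

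Many clustered genes differed between the 2 accumbens libraries. Between them the log2 CPM differed by more than 1 for 18 of the 54 clustered genes, against 2 of 54 between the dorsal striatum libraries. Over all tested genes these shares were 20.3% in accumbens and 3.86% in dorsal striatum. Median absolute log2 differences in accumbens were 1.67 for alpha, 0.55 for beta and 0.52 for gamma genes, against 0.48, 0.25 and 0.13 in dorsal striatum and 0.40 (accumbens) and 0.20 (dorsal striatum) over all tested genes. The 28 alpha and gamma genes outside the C-type had 0.71 in accumbens and 0.20 in dorsal striatum, and the 5 C-type genes 0.26 in accumbens and 0.16 in dorsal striatum. Levels differ between these sets, and the part of counting error was not tested.

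Differences between the accumbens libraries ran both ways. Pcdhb9 had 183 and 54 counts in accumbens replicates 1 and 2, against 69 and 80 in dorsal striatum, whereas Pcdhb12 had 11 and 74 counts in accumbens against 90 and 87 in dorsal striatum. These genes were chosen after their values were seen. Pcdha9 likewise had 28 and 3 counts in accumbens, against 11 and 25 in dorsal striatum. In each of these genes the accumbens pair was wider than the dorsal striatum pair.

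**Figure D4:**
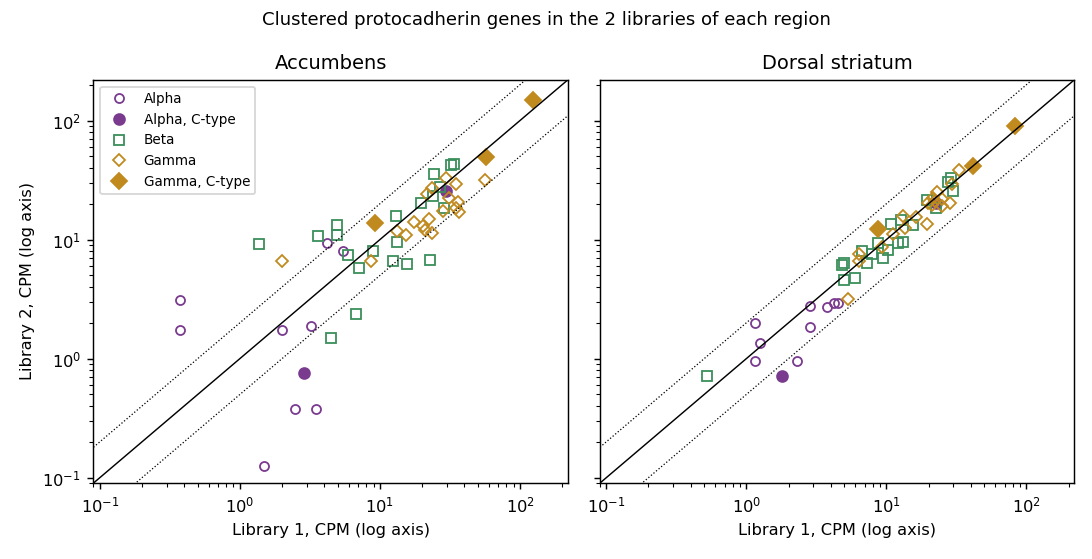
Level of each of the 54 clustered genes in library 1 (x axis) and library 2 (y axis) of accumbens (left) and dorsal striatum (right), as CPM on log axes; filled symbols are C-type genes, the solid line marks equal levels and dotted lines a 2-fold difference. Points scatter further from the line in accumbens, most of all alpha genes under 10 CPM.

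Partners and relatives of the family were followed in 3 lists, beside the 1.28% of all tested genes that passed. Of 20 catenins and partners of adhesion junctions 0 passed in edgeR, with 2 higher and 1 lower at an unadjusted p under 0.05. DESeq2 called 1 as lower and limma-voom 0. Over all tested genes 19.2% had such an unadjusted p, and limma-voom called 2.97%. DESeq2 called 11.2% of all genes to which it gave an adjusted p. The most abundant were Ctnnd2, the delta-catenin gene of neurons, at 373 and 306 CPM in accumbens against 333 and 343 CPM in dorsal striatum, and Ctnnb1, the beta-catenin gene, at 317 and 303 CPM in accumbens against 269 and 296 CPM in dorsal striatum. The median log2 fold change of the list was 0.03. Ctnna1, the alpha-catenin gene of epithelia and glia, was at 49.9 and 53.6 CPM in accumbens, against 93.1 and 77.8 CPM in dorsal striatum (log2 ratio of regions −0.72 with SE 0.17, edgeR adjusted p = 0.0831). It was named after its value was seen.

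Of 13 partners and regulators of protocadherins, among them the WAVE complex bound by delta-2 members and the factors that loop the clustered promoters, 0 passed in edgeR, with 2 higher and 2 lower at an unadjusted p under 0.05. DESeq2 called 1 higher and 1 lower, and limma-voom 1 lower. Over all tested genes 19.2% had an unadjusted edgeR p under 0.05, and limma-voom called 2.97%. DESeq2 called 11.2% of all genes to which it gave an adjusted p. The list's median was 0.11. The most abundant were 2 genes of the WAVE complex. Cyfip2 was at 1155 and 943 CPM in accumbens against 1124 and 1208 CPM in dorsal striatum. Nckap1 was at 533 and 544 CPM in accumbens, against 744 and 789 CPM in dorsal striatum, with the regions apart (log2 ratio of regions −0.51 with SE 0.11, edgeR adjusted p = 0.0695). Of 15 tested members of other cadherin branches 2 passed, both higher in accumbens, with a median of 0.58. Fat1, a giant cadherin of glia and progenitors, was at 209 and 266 CPM in accumbens, against 114 and 125 CPM in dorsal striatum (log2 ratio of regions 0.99 with SE 0.16, edgeR adjusted p = 0.0380). Celsr2, which encodes a cadherin of planar cell polarity, was at 371 and 328 CPM in accumbens against 206 and 226 CPM in dorsal striatum (log2 ratio of regions 0.70 with SE 0.13, edgeR adjusted p = 0.0497). This count was 3 with DESeq2, which called 11.2% of all genes to which it gave an adjusted p. It was 1 with each other scaling, with the filter of 10 summed counts, with the GC offset and without the 50 most abundant genes. Leaving out either dorsal striatum library gave 1 as well. Leaving out either accumbens library gave more, in fits where calls became more frequent over all genes too.

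Other cell types were followed with marker genes in the same libraries. Of 8 astrocyte genes 1 (Gja1) was higher in accumbens. Their sum was 2871 to 3377 CPM in accumbens, against 2069 to 2958 CPM in dorsal striatum. Slc1a2 made up most of it, at 2844 and 2401 CPM in accumbens against 2448 and 1700 CPM in dorsal striatum. Log2 fold changes were positive for 5 of the 8 and negative for 3 (Aqp4 −0.32, Gfap −0.55 and Fgfr3 −0.33). Of 7 tested genes of GABA interneurons 1 (Sst) was higher. The list's sums were 345 to 354 CPM in accumbens against 194 to 233 CPM in dorsal striatum. Sst made up 193 and 143 CPM of these in accumbens, against 53.5 and 58.4 CPM in dorsal striatum. Log2 fold changes were positive for 4 of the 7 and negative for 3 (Pvalb −1.25, Nos1 −0.22 and Calb2 −0.15). Of 5 septum genes 1 (Ndst4) was higher, with sums of 65.8 to 86.0 CPM in accumbens against 51.4 to 95.9 CPM in dorsal striatum. In this list 3 log2 fold changes were positive and 2 negative (Zic1 −0.97 and Trpc4 −0.35). Of the 10 genes of striatal projection neurons 1 (Rgs9) was lower. Over all tested genes 1.28% passed in either direction. In the astrocyte and septum lists 0 genes were called with any other scaling, with the filter of 10 summed counts, without the 50 most abundant genes or without dorsal striatum replicate 2. The septum list had 0 also without dorsal striatum replicate 1 and with the GC offset, and the astrocyte list had 3 without accumbens replicate 2. Leaving out either accumbens library changed the counts of the interneuron and projection neuron lists, in fits where calls became more frequent over all genes too.

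In edgeR 0 genes passed among 8 oligodendrocyte genes (2424 to 2813 CPM in accumbens, 1752 to 2514 CPM in dorsal striatum) and 6 microglia genes (61.4 to 65.8 CPM in accumbens, 39.2 to 51.9 CPM in dorsal striatum). The same held for 11 cortical genes, 6 genes of oligodendrocyte precursors and 4 tested endothelial genes. It also held for 3 tested genes of ependyma and choroid plexus (11.8 to 12.6 CPM in accumbens, 13.8 to 14.8 CPM in dorsal striatum), a list in which Ccdc153, Ttr, Folr1 and Tmem212 were at 0 in both accumbens libraries. Ccdc153 was at 2.73 and 3.51 CPM in dorsal striatum, and Foxj1 at 1.49 and 2.38 CPM in accumbens against 7.57 and 6.69 CPM in dorsal striatum. Kl ran the other way, at 10.3 and 10.3 CPM in accumbens against 3.26 and 4.303 CPM in dorsal striatum, so the sum of this list joins opposite differences. Unadjusted edgeR p was under 0.05 for 5 cortical and 3 ependymal genes, for 2 oligodendrocyte genes and for 1 each of the other 3 lists. Over all tested genes 19.2% stood there. DESeq2 called 2 cortical and 2 oligodendrocyte genes, and limma-voom 2 cortical, 1 oligodendrocyte and 1 ependymal gene, with 0 in the remaining lists. DESeq2 called 11.2% of all genes to which it gave an adjusted p, and limma-voom 2.97% of all tested genes. In edgeR with the replicate number as a further term, 4 cortical genes were higher, where 843 of all genes passed. With no filter beyond 1 count, 5 cortical genes were higher and 1 lower, where 1203 of all genes passed. The oligodendrocyte, endothelial and ependymal lists also had calls in both settings, and the cortical list with each library left out. The part of any of these cell types in the levels of the family was not tested.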

How the data were processed

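Gene expression was measured by RNA sequencing of input RNA in 2 libraries of accumbens nucleus and 2 of dorsal striatum, grouped by the region in the labels. The authors deposited raw counts per gene symbol. Per the submitters' processing notes, the tools were STAR 2.0.0e and HTSeq, on the mm10 build. Annotation, strand setting and overlap mode were not given in the sources used, and reads of antisense or overlapping genes cannot be told apart. Reads in no feature made up 27.5% to 35.4%, ambiguous reads 6.06% to 9.46% and reads with several alignments 6.98% to 10.2% of all reads in the tables. They entered neither library sizes nor tests, like a row named unknown with 0 counts.

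Counts were scaled with TMM and tested over the whole table in edgeR 4.0.16 by its quasi-likelihood test in R 4.3.3 (filterByExpr, region as the only term, two-sided, Benjamini-Hochberg over 14493 genes, threshold 0.05). SE was obtained as the absolute log2 fold change over the square root of F. CPM values use TMM-scaled library sizes; differences between libraries use log2 CPM with a prior count of 2. Alternatives covered scaling, low-count filters, DESeq2 1.42.0, limma 3.58.1 (voom), a robust fit, a replicate block, each library left out and the 50 most abundant genes left out. The fit was tested on simulated data. The members and lists were chosen with earlier results of these data known. Named were members past the threshold, the 4 most abundant per subclass, the 4 largest uncalled changes in each direction at a mean of at least 1 CPM, those beside the count minimum and, of other lists, members past the threshold or the 2 most abundant. The lists were catenins and junction partners, protocadherin partners, other cadherin branches, and markers of cortical neurons, septum, striatal projection neurons, GABA interneurons, astrocytes, oligodendrocytes, their precursors, microglia, endothelium, and ependyma with choroid plexus. GC content is that of the longest coding transcript in GENCODE M21, found for 80 of 81 tested members. Without molecular identifiers, the floor of 3 counts includes no error but that of counting.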

Additional observations from a re-analysis of the deposited data

How the results depend on the processing

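Against 186 genes past the threshold in all, 1203 passed with no filter beyond 1 count, 933 with DESeq2, 431 with limma-voom, 843 with the replicate block and 107 with the GC offset, and 109 to 4464 with a library left out. Against 4 members higher in accumbens, 2 passed with library size alone, 9 with no such filter, 8 with DESeq2, 8 with the replicate block, 2 with the GC offset and 1 to 21 with a library left out. Against 0 members lower, these numbers were 2 with no such filter, 2 with DESeq2, 1 with the replicate block and 0 to 8 with a library left out. Of catenins and junction partners, 1 was lower with library size alone, with no such filter, with DESeq2 and with the replicate block, and 0 to 2 were lower and 0 to 1 higher with a library left out. The causes were not tested. No label says that a replicate number marks a shared animal, batch or day, so the numbers were not taken to pair libraries. The deviations of same-numbered libraries from their region means correlated at 0.0326 over 14493 genes, in 2 pairs, too few to decide on a pairing. The GC offset was chosen after seeing the data.

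The direction turned for 5 named members that had not passed. With library size alone, the log2 fold change was −0.0647 for Cdh13 and −0.0647 for Cdh7. It was −0.43 for Cdh15 with limma-voom, and with the GC offset 0.0438 for Pcdh9 and 0.0501 for Pcdhb16. With a library left out it ran from −0.19 to 0.35 for Cdh13, from −3.42 to 1.99 for Cdh15, from −0.25 to 0.10 for Pcdh9 and from −0.36 to 0.19 for Pcdhb16. The remaining 515 comparisons of a named member with an alternative kept the direction, 469 of them also on the same side of the threshold. Members with few counts, such as most alpha genes, allow differences to be seen only where they are large.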
